A study of Homo sapiens with 18 samples.

Results

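The segments described here are the stretches of the genome of HL-60/S4 cells, a human myeloid leukemia cell line, that lay in histone H1.5 peaks of both immunoprecipitation protocols and in no histone H1.2 peak of either. They were chosen by the peak lists themselves: the bases shared by the xChIP H1.5 and xxChIP H1.5 lists were taken, every base of both H1.2 lists was removed, and the remaining runs of 500 bp or more on chromosomes 1 to 22 and X were kept. There were 11972 such segments, against 563676 merged peaks in the 4 lists together. They held 17.5 Mb, or 0.616% of the 2836 Mb of known sequence. The presence of H1.5 and the absence of H1.2 in them are therefore their definition and not a result.

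All samples were undifferentiated HL-60/S4 cells with no treatment, fixed with formaldehyde, and the groups differed only in protocol and antibody. In xChIP the chromatin was sonicated before the antibody was added. In xxChIP the antibody was bound to chromatin in permeabilized, unbroken cells, which were then washed and fixed again before sonication. The antibodies were rabbit polyclonals against the N-terminal part of H1.2 or of H1.5. There were 12 immunoprecipitated samples, 3 for each of the 4 combinations, and 6 Input samples that were not analysed here. The labels do not say whether the 3 came from separate cultures. Each combination is available as 1 list of peak positions merged over its replicates, without scores or read numbers, so the depth is unknown, no spread between replicates can be given, and no test against replicate error was possible. The values below are descriptions of 1 cell line, in which copy number was not measured. Spreads are given over the 23 chromosomes, which are not replicates, and 95% Wilson intervals cover counting error only.

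Linker histones of the H1 family bind the nucleosome from outside, near the point where the DNA enters and leaves, and help fold the nucleosome chain into more compact chromatin. Human somatic cells contain several H1 isotypes, encoded by separate genes, that share a globular domain and differ mostly in their tails. Active promoters and CpG islands, which are stretches rich in the CG dinucleotide, are usually poor in H1. An antibody can only report an isotype where its epitope is reachable, so a peak shows enrichment of exposed epitope.

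As examples of the longest and of the most GC-rich segments, the central 200 bases of 4 of them are given on the plus strand of hg19 (GRCh37), with each CG dinucleotide in capitals. The first 3 are the longest segments, and the last has the highest GC content among 7959 segments of at least 1000 bp, of 8340 of that length in all, that were open to display. In that group 1 segment with still higher GC was passed over because the bases to be shown held an exon.
chr6:61922403-61922602, centre of the longest segment: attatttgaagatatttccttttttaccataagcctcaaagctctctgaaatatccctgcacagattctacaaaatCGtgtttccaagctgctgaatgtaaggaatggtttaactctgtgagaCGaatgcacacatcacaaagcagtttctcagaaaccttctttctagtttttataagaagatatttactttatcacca
chr20:8068079-8068278, centre of the second longest segment: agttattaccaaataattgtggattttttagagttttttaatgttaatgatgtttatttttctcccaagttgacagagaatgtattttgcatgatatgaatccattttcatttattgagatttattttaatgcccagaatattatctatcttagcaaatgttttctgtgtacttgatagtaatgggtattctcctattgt
chr7:145610008-145610207, centre of the next longest segment: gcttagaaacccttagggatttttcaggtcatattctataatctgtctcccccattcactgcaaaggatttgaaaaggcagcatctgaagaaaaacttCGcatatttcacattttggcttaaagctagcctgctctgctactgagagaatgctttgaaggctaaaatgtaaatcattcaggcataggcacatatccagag
chr6:520143-520342, highest GC: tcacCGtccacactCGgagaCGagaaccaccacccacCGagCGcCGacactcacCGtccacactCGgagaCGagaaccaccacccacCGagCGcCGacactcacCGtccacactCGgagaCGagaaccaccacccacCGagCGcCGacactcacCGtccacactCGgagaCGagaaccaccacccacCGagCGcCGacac
The highest-GC segment lies in an intron of EXOC2, which encodes a subunit of the exocyst. It has 64.5% GC and 207 CG dinucleotides in 1748 bp, and the stretch shown is a tandem repeat whose bases match themselves completely at a shift of 50 bp. The other 3 stretches shown had no such repeat at shifts of 2 to 100 bp, and they held between 0 and 2 CG dinucleotides each. Longer shifts were not examined, so a repeat with a longer unit would be missed, also in the longest segment, which lies near a large assembly gap. Mappability was not tested there.

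The segments were short. Their median length was 1236 bp, with quartiles at 901 and 1718 bp, and the medians of single chromosomes ran from 1143 to 1338 bp. There were 2104 segments (17.6%) of 2000 bp or more and 100 of 5000 bp or more. The length rule removed 9444 shorter runs holding 1.52 Mb. Near its threshold, 408 runs less than 50 bp too short were just outside, and 395 runs up to 50 bp over the minimum were just inside.

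The longest segment, chr6:61914399-61930606, measured 16208 bp and lay between genes, 34.2 kb from the large assembly gap of that chromosome and 467 kb from KHDRBS2, a gene for an RNA-binding protein. Its xChIP H1.5 peak ran from 61896412 to 61939218 and its xxChIP H1.5 peak from 61910351 to 61959236, and an xChIP H1.2 peak abutted it directly. The next, chr20:8062281-8074077, was 11797 bp long and lay in an intron of PLCB1, which encodes phospholipase C beta, an enzyme of G protein signalling. This one was the whole of its xChIP H1.5 peak, nested in an xxChIP H1.5 peak, and the nearest H1.2 peaks were 15526 bp away in xChIP and 7185 bp away in xxChIP. The segment chr7:145604746-145615469, of 10724 bp, lay 203 kb outside CNTNAP2, the gene for a neuronal cell adhesion protein. Segments of 9760 bp on chromosome 9 (near NDUFB6, a subunit of respiratory complex I), 8871 bp on chromosome 12 (near C12orf50), 8598 bp on chromosome 4 (near STPG2), 8399 bp on chromosome X (near ITM2A) and 8178 bp on chromosome 19 (near RPSA2) followed, all with midpoints between genes. The segment of 8141 bp on chromosome 7 had its midpoint in an exon of KMT2C, which encodes a histone H3 lysine 4 methyltransferase, and the tenth, of 7718 bp on chromosome 15, lay 272 kb from MCTP2. Of these 10, only the PLCB1 and KMT2C segments had their midpoint inside a protein-coding gene, and their GC contents ran from 32.5% to 46.2%.

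Most segments had the ends of H1.5 peaks on both sides, so removing H1.2 did not shorten them. These values come from the lists that chose the segments, after the length minimum, and are a description. Of all segment ends, 46.5% were set by the end of an xChIP H1.5 peak, 32.0% by an xxChIP H1.5 peak, 9.58% by an xChIP H1.2 peak and 11.9% by an xxChIP H1.2 peak. Both ends were H1.5 ends in 7253 segments (60.6%), and both were H1.2 ends in 421 (3.52%). The peaks behind them were longer in xxChIP, with a median of 3979 bp, than in xChIP, with a median of 2433 bp. A segment took up 52.7% of its xChIP H1.5 peak and 32.9% of its xxChIP H1.5 peak in the median. In 3990 segments (33.3%) the H1.5 peaks of both protocols overlapped no H1.2 peak at all.

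H1.2 peaks were often close by, but they are dense, and only 57.9% of known sequence lay in none. Cutting H1.2 bases away also makes such borders, and the distances were not measured for other sequence. A total of 4719 segments (39.4%) bordered an H1.2 peak directly, 2200 an xChIP H1.2 peak and 2736 an xxChIP H1.2 peak, and the median distance to the nearest H1.2 peak of either protocol was 878 bp. Only 531 segments (4.44%) lay 10 kb or more from every H1.2 peak. The farthest, chrX:145551998-145553276, lay 149517 bp from the nearest one and 339 kb from CXorf51B. It was followed by a segment in an intron of MAGEA11, a cancer-testis antigen gene on chromosome X, at 83841 bp, and by segments in introns of NCKAP5 at 62622 bp and of WWOX, which spans a common fragile site, at 29986 bp, with one near OR4M2-OT1 at 35500 bp between them.

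Coverage by all 4 lists was also followed outward from the segment centres (plot of peak coverage around the centres). The choice of segments fixes it at the centre and, since a segment and its neighbouring peaks extend over some length, shapes it for some kb around, so these values are a description. In xChIP, H1.2 peaks covered 9.74% of positions 1 kb downstream of the centre, 15.8% at 5 kb and 19.7% at 20 kb, below the 26.4% of all known sequence that this list covers. In xxChIP, H1.2 covered 11.9% at 1 kb, 18.7% at 5 kb and 22.1% at 20 kb, above the 20.2% of known sequence in that list. Coverage by xChIP H1.5 fell from 51.9% at 1 kb to 17.7% at 5 kb, near the 16.3% of known sequence, while xxChIP H1.5 fell more slowly, from 62.9% at 1 kb to 27.6% at 5 kb and 21.0% at 20 kb, against 17.2% of known sequence. The profile used 11970 segments, since 2 lay too close to a chromosome end.

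**Figure D1:**
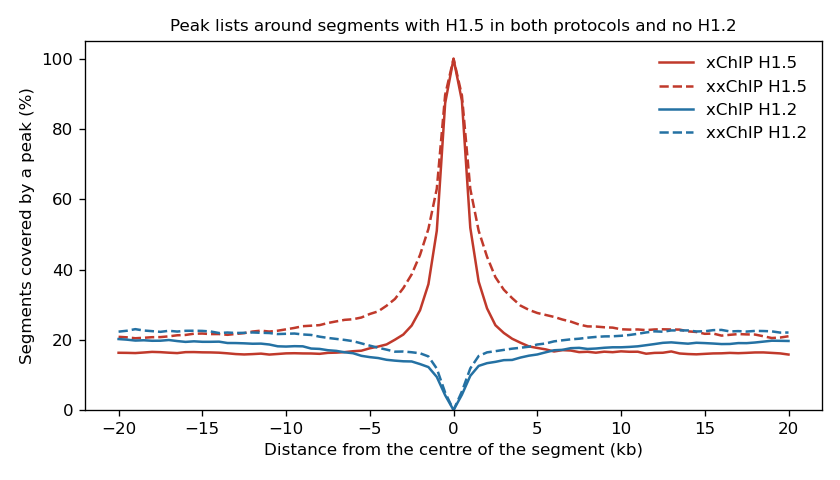
Percentage of segments covered by a peak of each list (vertical axis) against distance in kb from the segment centre (horizontal axis); solid lines are xChIP, dashed lines xxChIP, red H1.5 and blue H1.2. The values at the centre (100% and 0%) are fixed by the choice of segments; xChIP H1.2 reaches 19.7% and xxChIP H1.2 22.1% at 20 kb.

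Bases shared by the H1.5 lists were mostly also in an H1.2 peak. The H1.5 peaks of both protocols shared 89.5 Mb, 3.16% of known sequence. This was 19.4% of the xChIP H1.5 bases, against 17.2% of known sequence in xxChIP H1.5 peaks. It was 18.4% of the xxChIP H1.5 bases, against 16.3% of known sequence in xChIP H1.5 peaks. Both shares were only slightly above those of known sequence. Of these shared bases, 21.2% lay in no H1.2 peak, whereas 57.9% of known sequence lay in none. Removing only the xChIP H1.2 list left 49.9% of them, and removing only the xxChIP H1.2 list left 48.1%.

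For comparison, the converse segments, with H1.2 in both protocols and no H1.5, numbered 29000 and held 45.0 Mb, and 11717 segments covered by all 4 lists held 20.2 Mb. Their median lengths, 1319 and 1228 bp, were close to that of the H1.5 segments. The converse segments outnumbered the H1.5 segments on each of the 23 chromosomes. The H1.2 lists also cover more of known sequence, 26.4% in xChIP and 20.2% in xxChIP, than the H1.5 lists, with 16.3% and 17.2%.

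The H1.5 segments were poor in G and C. Their GC content was 39.0%, with a standard deviation over chromosomes of 1.90 percentage points, against 40.9% in known sequence, 42.8% in the converse H1.2 segments and 39.4% in the segments of all 4 lists. Within chromosomes the difference was more regular than these spreads. GC content was lower than in known sequence on 23 of 23 chromosomes, by 2.27 ± 1.08 percentage points (mean ± SD over chromosomes), and lower than in the converse H1.2 segments on 23 of 23, by 3.84 ± 0.588 percentage points. Against the segments of all 4 lists it was lower on 16 of 23. Single segments ranged from 22.8% to 69.4% with a median of 38.6%, 2993 (25.0%) had under 35% and 542 (4.53%) had 50% or more. The highest chromosome value was 44.5% on chromosome 22 and the lowest 36.5% on chromosome 13.

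Bases in H1.5 peaks of both protocols had much the same GC content with and without H1.2. Among the bases shared by both H1.5 lists, those in no H1.2 peak had 39.1% GC and those in an H1.2 peak 39.2%. With each chromosome counted once, the bases without H1.2 had the higher GC content, by 0.0830 ± 0.755 percentage points, a difference smaller than its spread, and they were lower on 11 of 23 chromosomes. Against known sequence in no H1.2 peak, with 40.2% GC, the shared H1.5 bases without H1.2 were lower on 22 of 23 chromosomes, by 1.5 ± 1.35 percentage points. Of the 4 lists, xChIP H1.2 had the highest GC content, 44.1%, followed by xChIP H1.5 with 40.8%, xxChIP H1.5 with 39.4% and xxChIP H1.2 with 38.9%.

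The GC content dipped at the middle of the segments (plot of GC content around the centres). The central 200 bp had 38.3% GC and the positions 2500 to 3000 bp away 39.6%, and the centre was lower on 23 of 23 chromosomes. The converse H1.2 segments had 41.6% at the centre and 41.8% in the same flanks, with a lower centre on 17 of 23. In all 3 sets the GC content was higher beside the centre, in the 100-bp steps centred 550 bp to each side, where it was 39.7% and 39.8% in the H1.5 segments and 43.4% and 43.5% in the converse segments, so against these nearer positions the centre of the converse segments lay lower by more than that of the H1.5 segments. The segments of all 4 lists also had a low centre, with 39.0% and 40.0%, lower on 22 of 23.

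**Figure D2:**
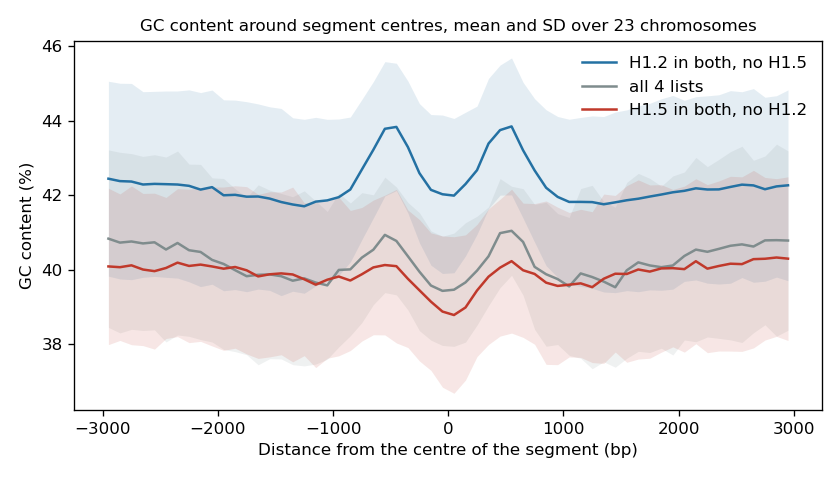
GC content in percent (vertical axis) in steps of 100 bp against distance in bp from the segment centre (horizontal axis), as the mean over 23 chromosomes with a band of 1 SD, for the H1.5 segments without H1.2 (red), the H1.2 segments without H1.5 (blue) and the segments of all 4 lists (grey). The red line is lowest at the centre and lies below the blue line throughout.

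CG dinucleotides were scarce. The segments held 7.84 of them per kb, against 9.87 in known sequence, 11.7 in the converse H1.2 segments and 8.49 in the segments of all 4 lists. The ratio of observed to expected CG, which corrects for the content of C and G, was 0.207 (SD over chromosomes 0.0203), against 0.236, 0.255 and 0.218. No CG at all occurred in 132 segments (1.10%). Among 2080 hexamers, counted on both strands together, the 50 least frequent in the segments relative to known sequence all held a CG, as 604 of the 2080 do.

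CA repeats were frequent. Alternating runs of CA (or of TG, the same repeat on the other strand) of at least 12 bp occurred 92.7 times per Mb in the segments and 57.6 times in known sequence, a ratio of 1.61, and the segments were above known sequence on 23 of 23 chromosomes. They were found in 1262 segments (10.5%). The hexamer ACACAC had the highest ratio of all, 1.33, followed by ATATAC with 1.26. In the segments of all 4 lists these 2 ratios were higher, 1.58 and 1.37. The rate of CA repeats was 71.1 per Mb in the converse H1.2 segments and 91.1 in the segments of all 4 lists, the latter close to that of the H1.5 segments. Runs of at least 12 A or of at least 12 T, as found at the tails of retrotransposed elements, set the H1.5 and the converse segments apart, with 233 per Mb in the H1.5 segments, 236 in known sequence and 448 in the converse H1.2 segments. The segments of all 4 lists had 227 per Mb, so it was the converse segments that differed from known sequence. At least 1 such run was present in 27.0% of the H1.5 segments, 46.8% of the converse segments and 29.6% of the segments of all 4 lists.

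The segments lay in protein-coding genes less often than known sequence does. Their midpoints lay in protein-coding genes for 4633 segments, 38.7% (interval 37.8 to 39.6), whereas protein-coding genes make up 45.8% of known sequence. The converse H1.2 segments stood at 48.6% and the segments of all 4 lists at 35.8%. By chromosome the share in the H1.5 segments ran from 28.6% to 53.0%. When all annotated genes were counted, it was 57.2% against 62.2% of known sequence. Introns of protein-coding genes held 4412 segments, other annotated genes 2211, and 5128 (42.8%) lay between genes. Within the bases shared by both H1.5 lists, 37.3% of those without H1.2 and 33.1% of those with H1.2 were in protein-coding genes.

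Exons and promoters were rarely hit. Exons of protein-coding genes held the midpoints of 221 segments, 1.85% (1.62 to 2.10), against 3.82% of known sequence. The exon share was 2.29% in the converse H1.2 segments and lower, 0.956%, in the segments of all 4 lists. Coding exon sequence held 68, 0.568% (0.448 to 0.719), against 1.26%, with 0.766% and 0.248% in these 2 sets. Of the bases shared by both H1.5 lists, 1.64% of those without H1.2 and 0.887% of those with H1.2 were in exons. Promoters, taken as 1000 bp to each side of the start site of a protein-coding gene, held 35, 0.292% (0.210 to 0.406), against 1.3%. The promoter share was 0.283% in the converse H1.2 segments, with overlapping intervals, and 0.128% in the segments of all 4 lists. CpG islands held 282 midpoints, 2.36% (2.10 to 2.64), against 4.94% of known sequence, 5.39% of the converse H1.2 segments and 3.84% of the segments of all 4 lists. Stricter islands, from windows of 500 bp with 55% GC and a ratio of 0.65, held 0.226% of the H1.5 segments, against 1.51% of known sequence. They held 0.466% of the converse segments and 0.640% of the segments of all 4 lists, so the order of these 2 sets depends on the definition. Within the bases shared by both H1.5 lists, 3.53% of those without H1.2 and 4.20% of those with H1.2 were on CpG islands. The median distance from a segment to the nearest protein-coding start site was 118 kb, against 85.0 kb for known sequence, 54.5 kb for the converse H1.2 segments and 102 kb for the segments of all 4 lists. Of the 4428 segments inside exactly 1 gene, 50.8% lay in the part of the gene nearer to its start.

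The segments were about as frequent near large assembly gaps as known sequence is, and less frequent near chromosome ends. Within 1 Mb of an assembly gap of at least 1 Mb lay 174 of them, 1.45% (1.25 to 1.68), against 1.44% of known sequence, and within 1 Mb of a chromosome end 126, 1.05% (0.885 to 1.25), against 1.36%. The segments of all 4 lists, by contrast, had 3.60% near such gaps.

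**Figure D3:**
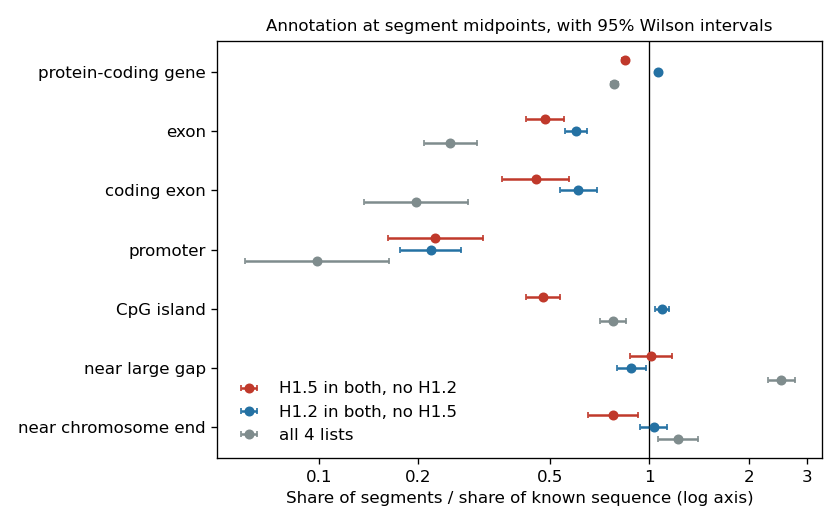
Share of segment midpoints in each annotation class divided by the share of known sequence in that class (horizontal log axis; the line marks 1), for the H1.5 segments without H1.2 (red), the H1.2 segments without H1.5 (blue) and the segments of all 4 lists (grey), with 95% Wilson intervals. The red points lie below 1 for genes, exons, coding exons, promoters, CpG islands and chromosome ends, and the interval for large gaps includes 1.

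Across 100-kb windows, the density of segments was lower where GC content and gene density were higher. In 100-kb windows sorted by GC content into 5 classes of nearly equal number, the H1.5 segments took up 8.36 kb per Mb in the class with the lowest GC and then 7.11, 6.32, 5.04 and 3.95 kb per Mb. The converse H1.2 segments went the other way, from 9.32 kb per Mb in the lowest class to 21.4 in the fourth and 20.2 in the highest (plot of density by GC class). The segments of all 4 lists peaked in the second class, at 10.1 kb per Mb. In windows with no protein-coding start site the H1.5 segments took up 7.14 kb per Mb, with 1 start site 5.26, with 2 to 4 start sites 3.86 and with 5 or more 2.03. The segments of all 4 lists also became sparser in this order, with 5.83 kb per Mb at 1 start site, 5.23 at 2 to 4 and 4.91 at 5 or more. Whole chromosomes did not follow GC content in this way, since the densest, chromosome 22, has 48.0% GC in its known sequence. The windows without a start site held 8388 segments, 70.2% of those assigned to a window, and made up 62.0% of the windows.

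**Figure D4:**
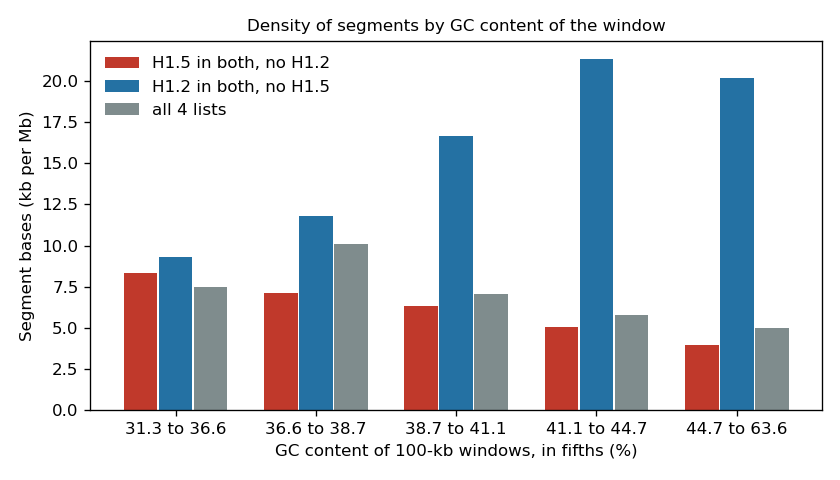
Segment bases in kb per Mb (vertical axis) in 5 classes of 100-kb windows by GC content in percent (horizontal axis), for the H1.5 segments without H1.2 (red), the H1.2 segments without H1.5 (blue) and the segments of all 4 lists (grey). Red bars go down from 8.36 to 3.95 kb per Mb and blue bars up from 9.32 to 20.2 kb per Mb between the lowest and the highest class.

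The segments were spread over all chromosomes, with 4.22 per Mb of known sequence and a standard deviation of 1.02 over chromosomes. The median gap between neighbours was 139 kb, and 9.59% of gaps were 10 kb or shorter. Chromosome 22 had the highest density, 6.33 per Mb, followed by chromosome 12 with 5.68 and chromosome 15 with 5.52. The lowest densities were on chromosomes 16 with 1.99, X with 2.70, 18 and 10 with 3.24 each and 17 with 3.26 per Mb. These 5 chromosomes also had the lowest coverage by xChIP H1.5 peaks, from 7.69% on chromosome 16 to 11.8% on chromosome 18. The segments are part of that list, so the relation is partly built in, and the share of copy number in it was not tested.

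**Figure D5:**
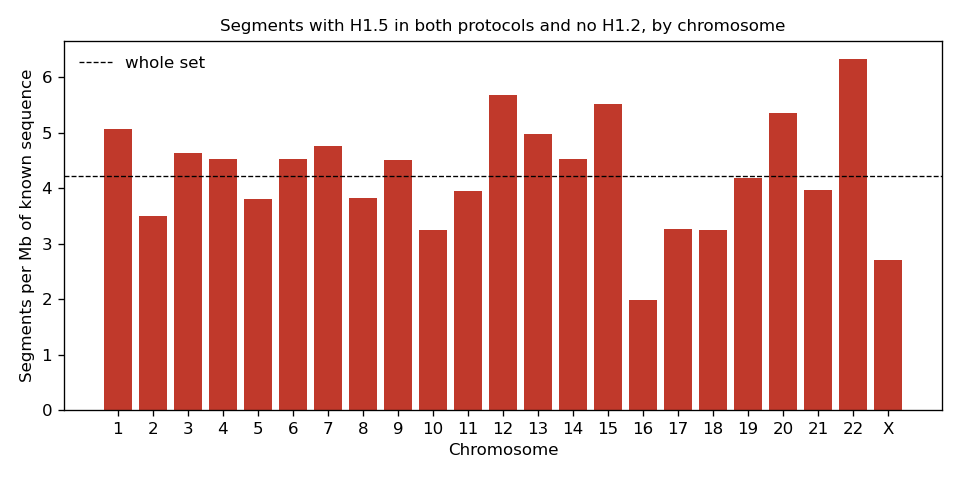
Number of H1.5 segments without H1.2 per Mb of known sequence (vertical axis) on each chromosome (horizontal axis); the dashed line marks the 4.22 per Mb of all chromosomes. Chromosome 22 stands highest at 6.33 and chromosome 16 lowest at 1.99.

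The densest windows held up to 4 start sites of protein-coding genes. Of 2842 windows of 1 Mb, 148 held no segment midpoint, and the median window held 4 segments and 5.16 kb. The window from 87 to 88 Mb of chromosome 12 (chr12:87000001-88000000), which contains MGAT4C, a gene for an N-acetylglucosaminyltransferase family member, held 11 segments with 30.0 kb. The window chr3:77000001-78000000, over the end of the axon guidance receptor gene ROBO2, held 16 segments with 29.3 kb. The window chr6:78000001-79000000, with the serotonin receptor gene HTR1B and the meiotic gene MEI4, held 14 segments with 28.9 kb and only 0.744 kb of converse H1.2 segments. On chromosome 22 the window chr22:28000001-29000000, with MN1, PITPNB and TTC28, held 17 segments, the most of any window, with 26.9 kb. The window chr8:39000001-40000000 held 15 segments with 26.8 kb and covers a cluster of ADAM metalloprotease family genes (ADAM18, ADAM2 and ADAM32) and the tryptophan-degrading enzymes IDO1 and IDO2.

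Segments inside genes were found mostly in long ones. Of 20098 protein-coding genes, 2810 (14.0%) shared a base with a segment. Their median length was 142 kb, against 21.4 kb for genes without one. Per length, the segments took up 1.89 bp per kb of genes under 10 kb, 3.45 of genes of 10 to 100 kb, 5.35 of genes of 100 to 500 kb and 6.64 of genes of 500 kb or more. The converse H1.2 segments took up 7.30, 19.7, 17.1 and 11.1 bp per kb in the same classes. The segments of all 4 lists took up 2.45, 3.90, 4.89 and 4.66 bp per kb, so they too were denser in long genes than in short ones. Of the 323 genes of 500 kb or more, 306 held part of an H1.5 segment.

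Several of the 10 genes with most segments encode proteins of the neuronal cell surface. All 10 are over 500 kb long, and the count rises with length. Per Mb of gene, LRP1B held 5.26 segments, PCDH15 6.03, MACROD2 6.80, ROBO2 9.18 and TTC28 18.5, against 4.22 over all known sequence. ROBO2, 1743 kb long, and GPC5, a glypican of 1475 kb, held 16 segments each. MACROD2, an ADP-ribose hydrolase gene of 2058 kb, held 14 and TTC28 13. PCDH15, a protocadherin of the hair cells of the inner ear, ASIC2, a proton-gated ion channel, and MAGI2, a synaptic scaffold protein, held 11 each, and the cell adhesion gene NEGR1 and the lipoprotein receptor gene LRP1B 10 each. Segments were not equally frequent relative to the converse class. TTC28 had 22.4 kb in H1.5 segments and 2.79 kb in converse H1.2 segments, and NEGR1 18.3 and 4.21 kb. PCDH15 had 21.0 and 23.1 kb and LRP1B 17.4 and 16.7 kb, and CNTNAP2 had 12.1 kb in 10 H1.5 segments and 37.6 kb in 23 converse ones.

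Relative to their length, other genes stood first. Of the 10 genes of at least 10 kb with the largest share of their body in segments, 5 belong to families with near-identical copies. Their calls are uncertain, because reads from such copies may not be told apart, and mappability was not tested. These were GOLGA6L24 with 36.6%, NBPF9 with 20.4%, GOLGA6D with 20.1%, the beta-defensin gene DEFB107B with 20.0% and NBPF16 with 19.7%. The others were C14orf180 with 34.6%, C1QTNF6, which encodes a secreted C1q-related protein, with 30.1%, SRRD with 20.9%, ARPC5, a subunit of the actin-nucleating Arp2/3 complex, with 17.7% and the zinc finger gene ZFP28 with 17.6%. None of the 10 held a converse H1.2 segment, but they are only 10.2 to 19.2 kb long. Over all known sequence such segments number 10.2 per Mb, with a median gap of 54.5 kb, so their absence here says little.

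The start site itself lay inside a segment for 26 protein-coding genes (0.129%). The longest segment at a start, of 5516 bp, was at SLCO1B3-SLCO1B7, a read-through of liver organic anion transporter genes, and the next, of 4652 bp, at PRAMEF9, a member of a multicopy cancer-testis family. SLPI, which encodes a protease inhibitor secreted by epithelia and neutrophils, came next with 3614 bp, before SUSD2 with 3227 bp and GPRC6A, an amino acid-sensing receptor, with 2985 bp. ENPP6, a choline-specific phosphodiesterase, had 2859 bp, CD5L, a protein secreted by macrophages, 2593 bp, SYT3, a synaptotagmin, 2572 bp, and VSIG1 2444 bp. ZNF799, the olfactory receptor gene OR10P1, RNF165, PPP1R1C, LZTFL1, GOLGA6L24, TEX19, NBPF16, the epidermal protease inhibitor gene SPINK6, MAB21L3 and FAM27E1 followed with 1940 to 1112 bp. The GC content of these segments differed widely, from 33.9% at GPRC6A to 61.9% at SUSD2. SYT3 had 117 CG dinucleotides in its segment and ZNF799 100.

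Gene families differed in how often they met a segment. The background is 14.0% of all protein-coding genes and 4.95 bp of segment per kb of gene. Among genes of 100 to 500 kb the same values are 44.9% and 5.35 bp per kb, and among genes of 500 kb or more 94.7% and 6.64 bp per kb. Several families of long genes, many of them neuronal, were above the background of all genes by count, as long genes are in general. Of 13 contactin and contactin-associated genes 9 held a segment, of 28 glutamate receptor genes 16, of 19 GABA-A receptor genes 9, of 23 cadherins 9, of 44 collagens 17 and of 95 potassium channel genes 27. Their segments took up 6.60, 6.19, 7.02, 5.77, 7.22 and 5.96 bp per kb, against the 4.95 of all genes. CNTN5 held 12.7 kb in 7 segments, GRM8 11.7 kb in 5, KCNK2 9.96 kb in 3, COL21A1 7.91 kb in 3 and GABRA2, which had no converse H1.2 segment, 7.20 kb in 4. The UDP-glucuronosyltransferase genes, which inactivate drugs and bilirubin, had 8 of 22 genes and 9.64 bp per kb, but several of them share exons and the same segment.

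The other families gave mixed values. Of 414 olfactory receptor genes 11 held part of a segment, with 3.82 bp per kb from 7 midpoints. All genes have 4.95 and those under 10 kb 1.89, but some olfactory receptor gene models are longer, such as OR4N2 with 111 kb. In the olfactory receptor genes the segments of all 4 lists took up 8.04 and the converse H1.2 segments 9.88 bp per kb. Of 515 ZNF genes 53 held part of an H1.5 segment, of 82 histone genes 2, of 55 keratin genes 2, of 83 ribosomal protein genes 1 and of 50 proteasome genes 3. The ZNF genes were near the background per length, with 4.46 bp per kb, and ZNF91, a repressor of retroelements, held the most, 5.80 kb in 3 segments. The ribosomal protein genes had 0.793 bp per kb and 16.3 bp per kb in converse H1.2 segments. No segment met the 94 keratin-associated protein, 39 HOX, 19 HLA or 15 interferon genes. These are short, with median lengths of 0.859, 4.22, 8.31 and 0.98 kb. Of all genes under 10 kb only 0.898% held part of a segment, so few hits would be found in families of this size. Cytochrome P450 genes had 9 of 57 and 5.61 bp per kb. Taste receptors had 2 of 24 but 17.0 bp per kb, the highest value of the families examined. This came from 4 segment midpoints in TAS2R14 and TAS2R1, with gene models of 234 and 85.0 kb, against a median of 1.09 kb in the family. Clustered protocadherins had 13 of 53, which overlap one another and share a segment in at least the PCDHG cluster.

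Among genes that mark the myeloid lineage, 1 met a segment, but the lists are small and most of the genes short. None of the 11 azurophil granule genes, which encode the proteases and antimicrobial proteins of promyelocytes such as MPO, ELANE and PRTN3, shared a base with one, and neither did these genes meet a converse H1.2 segment or a segment of all 4 lists. Their median length is 2.49 kb, against 27.3 kb for all protein-coding genes. In the genes under 10 kb as a whole 0.898% held part of a segment, so its absence from these 11 says little. Of 11 genes for myeloid transcription factors, with a median length of 7.52 kb, RUNX1 alone (9.09%) held a segment, against 14.0% of all protein-coding genes. It was 1.03 kb long, within a gene model of 1217 kb that also held 15.7 kb of converse H1.2 segments.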

How the data were processed

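In undifferentiated HL-60/S4 cells, enrichment of 2 linker histones, H1.2 and H1.5, was measured by both ChIP-seq protocols in 3 replicates per antibody. Before deposition, the authors mapped read pairs by Bowtie2 (hg19, unique hits only), ran MUSIC with default settings for each replicate, and joined the 3 sets of peaks into 1 list per combination. The deposited files hold the resulting positions (chromosome, start, end) and no count, signal or score. Merging can lengthen peaks, and unique mapping leaves repeated sequence uncovered. Versions of Bowtie2 and MUSIC are not given in the sources used here.

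Starts were read as counted from 0, and printed positions count from 1. Segments were formed base by base with numpy 2.4.6 and numba 0.67.0 in Python 3.11.15, on the GRCh37 assembly (samtools 1.23.1) with GENCODE release 44 lifted to GRCh37. A segment was assigned to a feature by its midpoint, beside the share of known sequence in that feature. CpG islands were the union of all windows of 200 bp with at least 50% GC and an observed to expected CG ratio of at least 0.6, in unmasked sequence. No test was made. The segment and island steps were tested on simulated data. Figures were drawn with matplotlib 3.10.9.

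The segments, gene families and feature definitions were chosen with earlier results of these data known. Named genes were those with the start site in a segment (20 named, longest segment first), the 10 with most segment midpoints, the 10 of at least 10 kb with the largest share in segments, those at the 10 longest segments and those in the 5 windows of 1 Mb with most segment bases. Segments of chromosome 8 were not considered for display. Some named items and sequences that these rules select are not reported here. Examples from gene families and the segments farthest from H1.2 were picked after their values were seen. Alternatives changed the length minimum, the H1.2 subtraction, the peak lengths used, the chromosomes and the feature definitions.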

Additional observations from a re-analysis of the deposited data

How the results depend on the processing

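Of 82 recomputed values, 56 stayed near the value reported and 26 moved, by more than 1.5 times for counts, more than the spread over chromosomes for lengths and base content, or beyond the 95% interval for shares. GC content and the CG ratio stayed within that spread under each of the 8 alternatives run on them, between 38.4% and 40.0% and between 0.198 and 0.224. That spread is wide, 1.90 percentage points and 0.0203. The reported values are 39.0% and 0.207, and those of known sequence 40.9% and 0.236. The highest values, from whole H1.5 peaks free of H1.2, lay nearer to known sequence than those reported.

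When whole H1.5 peaks free of H1.2 were required, 3990 segments with 5.68 Mb remained, with 43.6% in protein-coding genes, 0.201% at promoters, 2.28% in exons and 3.08% on CpG islands. Without H1.5 peaks under 2000 bp there were 5501 segments with 10.1 Mb and a median of 1619 bp, with 34.7% in genes, 1.58% in exons and 1.87% on islands. Without H1.5 peaks of 20 kb or more, 40.1% lay in genes. A minimum of 200 bp gave a median of 1067 bp and 3.10% on islands, and a minimum of 1000 bp gave 1492 bp and 2.10%. With all annotated genes, shares were 57.2% in genes, 2.24% at promoters (4.03% of known sequence) and 3.20% in exons (5.49%). Promoters of 500 bp to each side held 0.134% (0.661% of known sequence) and of 2500 bp 1.21% (3.17%). Stricter islands held 0.226% (1.51%). Counting any shared base gave 0.635% at promoters, 5.74% in exons and 16.5% on islands. By midpoint, shares in genes, exons, promoters and islands stayed below those of known sequence under each alternative.

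No paired analysis was possible because each list merges its replicates. The 8 alternatives for the repeat-masked share were not run, since the reference is not masked. Without scores, a stricter peak threshold could not be set, and depth and the support of each peak over replicates are unknown.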
